A study of Homo sapiens with 6 samples.

Results

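The genes described here are 10 genes of pericellular proteolysis: the matrix metalloproteinases MMP2, MMP8, MMP14, MMP15, MMP16 and MMP17, the tissue inhibitors of metalloproteinases TIMP1, TIMP2 and TIMP3, and the membrane-anchored inhibitor RECK. They were chosen by name, with the authors' comparison of DANCR knockdown and control cells already known, and the values that chose them are neither used nor printed. Their rows were found by Ensembl identifier in a table of 13449 genes. A row was present for 9 of the 10, and MMP2 (ENSG00000087245, GRCh37 chromosome 16, 55423612 to 55540603) had none in the table used here. The lowest mean in the table was 23.1 normalised counts, and whether genes below some level had been removed from it is not stated in the sources. A gene without a row is therefore not shown to be silent.

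The cells were SK-MEL-28, an established human cutaneous melanoma line, transfected by lipofectamine with a control siRNA (3 libraries) or with an siRNA against the long noncoding RNA DANCR (siDANCR, 3 libraries) and, by the study's methods, harvested 3 days later. Both groups were transfected, so the controls share the reagent but not the DANCR siRNA. The RNA was selected for poly(A) and sequenced as strand-specific 150-base read pairs. The labels name the replicates but do not say that they came from separate cultures, and the growth medium differs between the labels and the methods. The 1 value per gene used here is the authors' mean of the normalised read counts over all 6 libraries; the columns of their own comparison of the groups in the same table were not used. This mean gives no total count per library, no SD and no difference between siDANCR and control cells, the knockdown of DANCR (mean 425.9 normalised counts over the 6) could not be checked library by library, and every value below is a level over the 6 libraries.

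Matrix metalloproteinases are zinc-dependent endopeptidases that cut collagens and other matrix proteins and are made as inactive proenzymes. MMP14, MMP15 and MMP16 carry a transmembrane segment and MMP17 a lipid anchor, so these membrane-type enzymes act at the cell surface, whereas MMP2 and MMP8 are secreted. The TIMPs are small secreted proteins that fill the active site of the enzymes. TIMP2 has a second role, since it bridges MMP14 and pro-MMP2 in the complex in which MMP14 activates pro-MMP2. In melanoma these enzymes are known for their part in invasion through collagen.

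The site that defines the enzymes is the zinc-binding motif, in which 3 histidines hold the zinc and a glutamate takes part in catalysis. It is shown because it separates the proteinases from their inhibitors by sequence alone. The codons are printed 5′ to 3′ on the coding strand of the GENCODE canonical transcript (GRCh37), 33 bases each, with the codons of the 3 histidines and the glutamate in capitals.
MMP2: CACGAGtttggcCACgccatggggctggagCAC
MMP8: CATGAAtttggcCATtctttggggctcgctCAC
MMP14: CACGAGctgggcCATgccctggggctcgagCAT
MMP15: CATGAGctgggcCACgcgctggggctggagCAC
MMP17: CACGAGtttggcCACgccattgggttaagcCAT

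All 6 listed MMPs held the zinc-binding motif, MMP16 included, and TIMP1, TIMP2, TIMP3 and RECK did not. Over the 19817 canonical coding transcripts that could be translated, 59 (0.298%) held it. The stretch lay in exon 5 of MMP8 (chromosome 11, 102589248 to 102589280, minus strand), of MMP14 (chromosome 14, 23312492 to 23312524, plus strand), of MMP15 (chromosome 16, 58074467 to 58074499, plus strand) and of MMP17 (chromosome 12, 132326204 to 132326236, plus strand), and in exon 8 of MMP2 (chromosome 16, 55525739 to 55525771, plus strand). Among the 15 pairs of MMPs the number of the 33 bases in common ran from 19 (57.6%, MMP16 and MMP17) to 28 (84.8%, both in MMP14 and MMP15 and in MMP2 and MMP15). Pairs of membrane-type enzymes thus stood at both ends of this range.

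A second stretch separated the listed membrane-type enzymes from the listed secreted ones, MMP2 and MMP8. Furin and related convertases cut proenzymes after an arginine that follows basic residues, and a match to arginine, any residue, lysine or arginine, then arginine was sought ahead of the zinc-binding motif (from the cysteine switch PRCG onwards where its letters were found). MMP14, MMP15, MMP16 and MMP17 held such a match in exon 3, whereas MMP2 and MMP8 held none. Only the listed MMPs were searched, so whether other MMPs or other genes hold such a match was not examined. The codons of the match are in capitals, with 6 bases on either side; in MMP15 overlapping matches were joined, and 1 further match lay nearer to the catalytic site.
MMP14: aatgttCGAAGGAAGCGCtacgcc
MMP15: aacctgCGGCGGCGTCGGAAGCGCtacgcc
MMP17: caggctCGCAGGAGACGCcaggct

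These capitals lay at 23311186 to 23311197 of chromosome 14 for MMP14, 58072234 to 58072251 of chromosome 16 for MMP15 and 132323228 to 132323239 of chromosome 12 for MMP17. FURIN, the convertase itself, had a mean of 4450 normalised counts, above 96.9% of the genes in the table.

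The inhibitors TIMP3 and TIMP2 and the proteinase MMP14 had some of the highest means in the table. TIMP3 (ENSG00000100234, chromosome 22, 33197691 to 33259028), the TIMP that stays bound to the matrix, had a mean of 41494 normalised counts, the 18th highest of 13449. TIMP2 (ENSG00000035862, chromosome 17, 76849059 to 76921469) had 21418 and was the 41st. MMP14 (ENSG00000157227, chromosome 14, 23305769 to 23318250), the main collagenase of the cell surface, had 16768 and was the 57th. These ranks are of read counts, corrected neither for transcript length nor for exon structure. Over the table the median mean varied with the share of a transcript clear of exon junctions, described below. It was 148 where that share was up to 20% and 507 at 60 to 80%. The share was 89.5% in TIMP3, 86.2% in TIMP2 and 64.2% in MMP14. The median of all genes was 322.5, and all 9 genes with a row lay above it. 6 of the 9 exceeded the 90th percentile of the table (1955). These counts hold for the listed genes, which were chosen with results of these data known. MMP1 (58.1) and MMP24 (59.9), family members outside the list, lay below the median, and 16 of 23 MMP genes had no row.

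**Figure D1:**
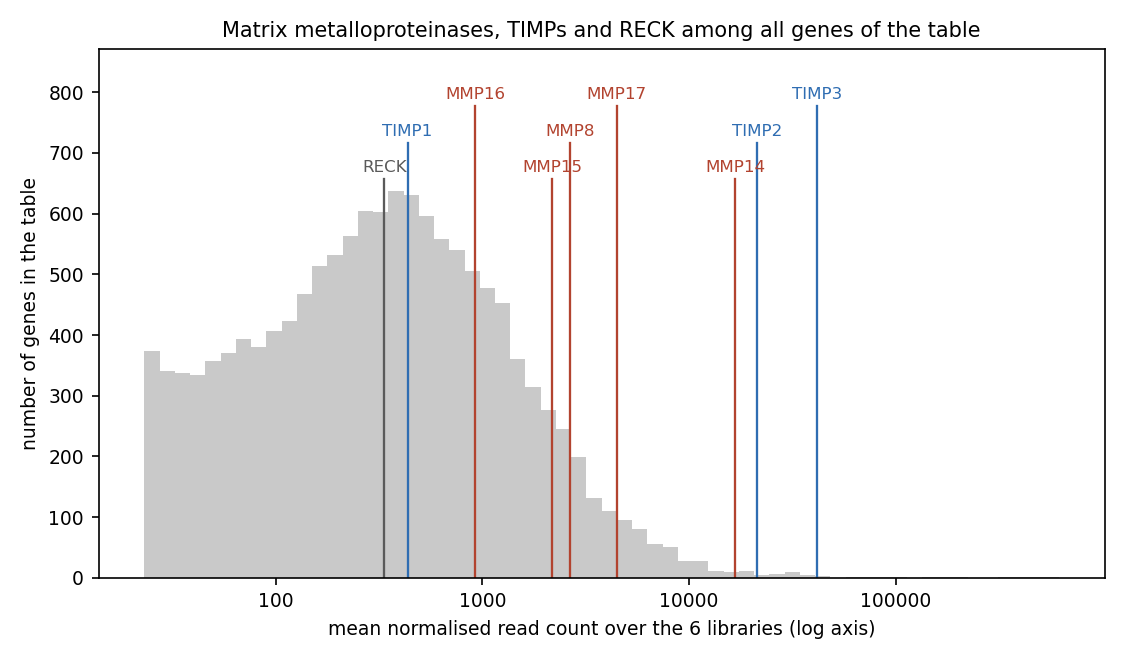
Histogram of the authors' mean normalised read count over the 6 libraries (log axis) for all 13449 genes, with a vertical line at each of the 9 genes that had a row (red MMPs, blue TIMPs, grey RECK; line heights only separate the names). TIMP3, TIMP2 and MMP14 lie in the right tail, and RECK and TIMP1 near the middle.

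Among the other membrane-type enzymes, MMP17 (ENSG00000198598, chromosome 12, 132312938 to 132336328), which is held at the surface by its lipid anchor, had a mean of 4456 normalised counts, above 96.9% of the genes. MMP15 (ENSG00000102996, chromosome 16, 58059658 to 58080805) had 2173, above 91.3%. MMP16 (ENSG00000156103) had 921, above 76.7%, the lowest of the 4 listed. The 4 listed membrane-type enzymes summed to 24318 normalised counts, of which MMP14 gave 69.0%. MMP24, a membrane-type enzyme outside the list, had a lower mean (59.9) and is not in this sum.

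MMP8 (ENSG00000118113, chromosome 11, 102582527 to 102597781), the collagenase first known from neutrophils, was the only secreted MMP among the listed genes with a row. Its mean was 2645 normalised counts, above 93.6% of the genes and above that of MMP15. The neutrophil markers MPO and ELANE had no row, nor did the leukocyte markers PTPRC, CD14 and CD3E. A missing row does not show that these markers were silent, and the source of the MMP8 reads was not tested. The melanocyte markers, checked against the labelled cell type, had a row for 6 of 7 genes, from 2514 (TYR, the first enzyme of melanin synthesis) to 24524 (PMEL, a structural protein of melanosomes), and TYRP1 had none. Of the other types, LUM was the only 1 of 3 fibroblast markers with a row (645 normalised counts), and the keratinocyte markers and the endothelial marker CDH5 had none (PECAM1 was not matched to an identifier).

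TIMP1 (ENSG00000102265, chromosome X, 47441807 to 47446188), a soluble inhibitor that binds MMP14 poorly, was below the other TIMPs on every scale, at a mean of 434 normalised counts, above 58.0% of the genes. RECK (ENSG00000122707, chromosome 9, 36036910 to 36124452), a membrane-anchored protein that restrains several MMPs, had the lowest mean of the 9, 335 normalised counts, above 51.0%. The 3 TIMPs summed to 63346 normalised counts, of which TIMP3 gave 65.5%.

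A read count grows with the length of a transcript, so levels were compared between genes per length. The scale set for this was the mean per kb of coding sequence, which leaves out the untranslated regions although reads fall on them. TIMP3 and TIMP2 have coding sequences of 636 and 663 bases in canonical transcripts of 4597 and 3652 bases, so that this scale raises them against MMP14, whose coding sequence is 1749 of 3701 bases. Per coding kb TIMP3 stood at 65243, TIMP2 at 32304 and MMP14 at 9587. MMP17 followed at 2459, MMP8 at 1884, MMP15 at 1081, TIMP1 at 695, MMP16 at 505 and RECK at 115. Per kb of the whole transcript the corresponding values were 9026 for TIMP3, 5865 for TIMP2, 4531 for MMP14, 1848 for MMP17, 866 for MMP8, 564 for TIMP1, 535 for MMP15, 79.7 for MMP16 and 75.9 for RECK. TIMP3 was first and MMP17 the fourth on both, while the order of TIMP1 and MMP15 changed. With no value per library, neighbours in these orders cannot be said to differ beyond their spread.

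**Figure D2:**
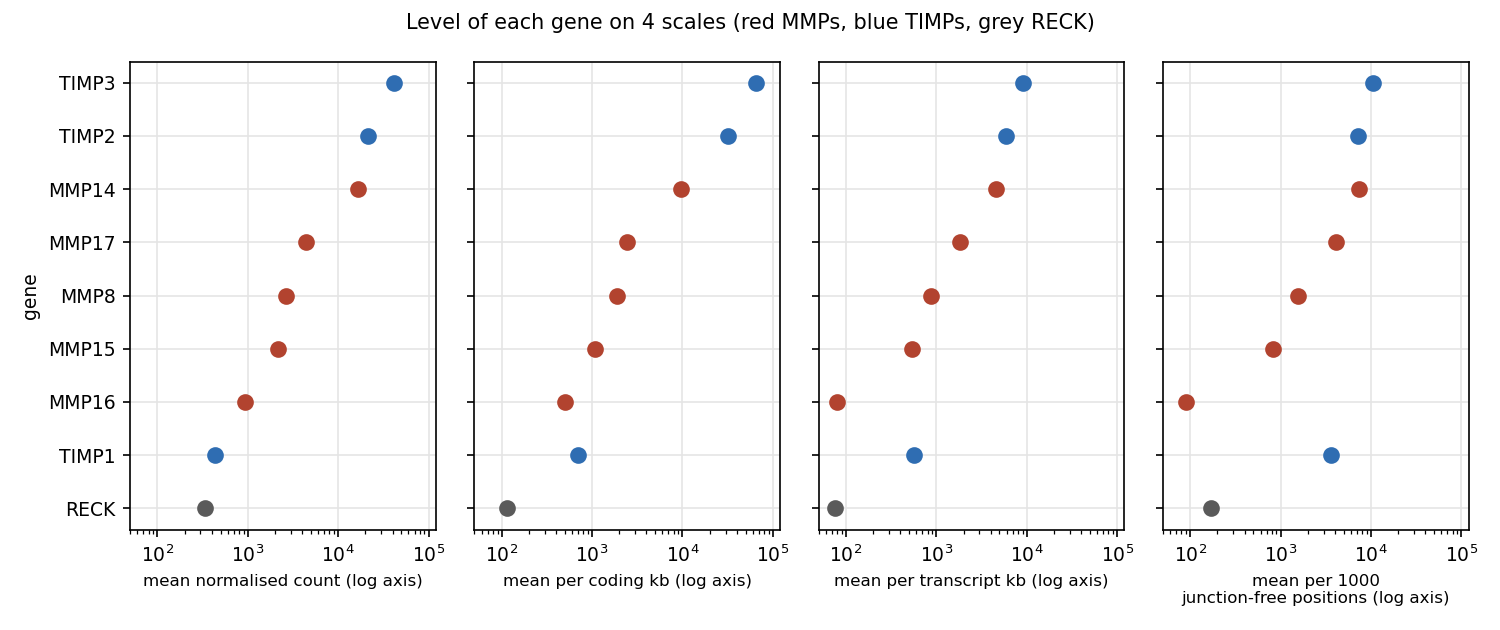
Level of each of the 9 genes (rows) on 4 scales, left to right: the authors' mean normalised count, the mean per kb of coding sequence, per kb of transcript and per kb of read start positions that cross no exon junction (log axes). Each point is 1 pooled value without error. The units differ between the scales, so genes can be compared only within a scale. From the top, TIMP1 had place 8 by normalised count and place 5 per junction-free kb, and MMP16 had places 7 and 9.

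The ratio of proteinase to inhibitor RNA depended on that choice of length. It is a ratio of levels pooled over control and siDANCR cells, and it measures neither protein nor active enzyme. Per coding kb MMP14 stood at 0.297 times the level of TIMP2, its partner in the activation of pro-MMP2. The ratio was 0.783 with no length correction and 0.773 per transcript kb. Per junction-free position, a scale explained in the next paragraph, it was 1.04, so the order of MMP14 and TIMP2 turned. The 4 listed membrane-type MMPs summed to 0.139 times the summed TIMPs per coding kb. On the other scales they summed to between 0.384 and 0.586 times, so this ratio was below 1 on all 4. Within the membrane-type enzymes, MMP14 was 8.87 times MMP15 per coding kb, and this ratio stayed between 7.72 and 8.92 on all 4 scales. It was 3.90 times MMP17 per coding kb and 1.79 times per junction-free position. It was 19.0 times MMP16 per coding kb, 56.8 times per transcript kb and 80.9 times per junction-free position; the canonical transcript of MMP16 is 11551 bases long. The ratios planned with MMP2 could not be computed.

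**Figure D3:**
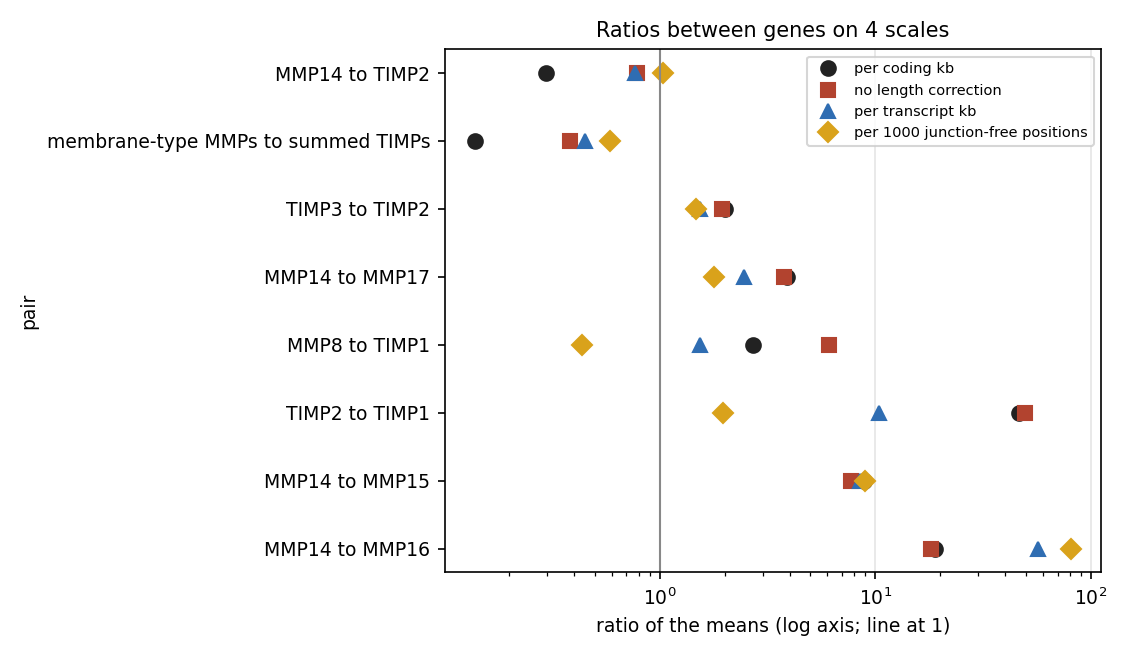
Ratios of the pooled means between genes or sums of genes (rows; log axis, line at 1) on the 4 scales, 1 symbol per scale. MMP14 to TIMP2 runs from 0.297 to 1.04 and MMP8 to TIMP1 crosses 1, whereas MMP14 to MMP15 stays between 7.72 and 8.92.

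TIMP1 also differed from the other TIMPs in its exon structure. The submitters' processing notes name Bowtie 1.1.2, an aligner that does not split a read across an intron, and how reads over exon junctions were placed is not stated in the sources. In the canonical transcript of TIMP1 (769 bases, 6 exons) only 120 of 620 start positions of a 150-base read cross no junction (19.4%), against 89.5% in TIMP3, 86.2% in TIMP2, 64.2% in MMP14 and 46.0% in RECK. The positions were counted for a single untrimmed read, although read pairs were sequenced and the processing notes name a trimming tool. The scale is thus a rough guide to the reads that could be placed. Over the table, the 602 spliced coding genes with a share of up to 20% had a median mean of 148 normalised counts. The median was 276, 386 and 507 in the next 3 bins of 20% and 445 in the 3318 genes with over 80%, the bin that holds TIMP2, TIMP3 and MMP16. The 78 ribosomal protein genes, which are short, much spliced and transcribed at high rates in growing cells, had a median of 307, below the median of all genes (322.5) and above that of the bin that holds their median share of 25.0% (276). Of the annotated spliced coding genes, 42.8% had a row where the share was up to 20%, against 63.7% at 60 to 80% and 59.8% above 80%. Per kb of junction-free positions TIMP1 stood at 3615, between MMP17 (4103) and MMP8 (1575), and TIMP2 was 1.96 times TIMP1 in place of 46.5 times per coding kb. MMP8 was 2.71 times TIMP1 per coding kb and 0.436 times per junction-free position. The part of read placement in the level of TIMP1, or of any other gene here, was not tested.

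**Figure D4:**
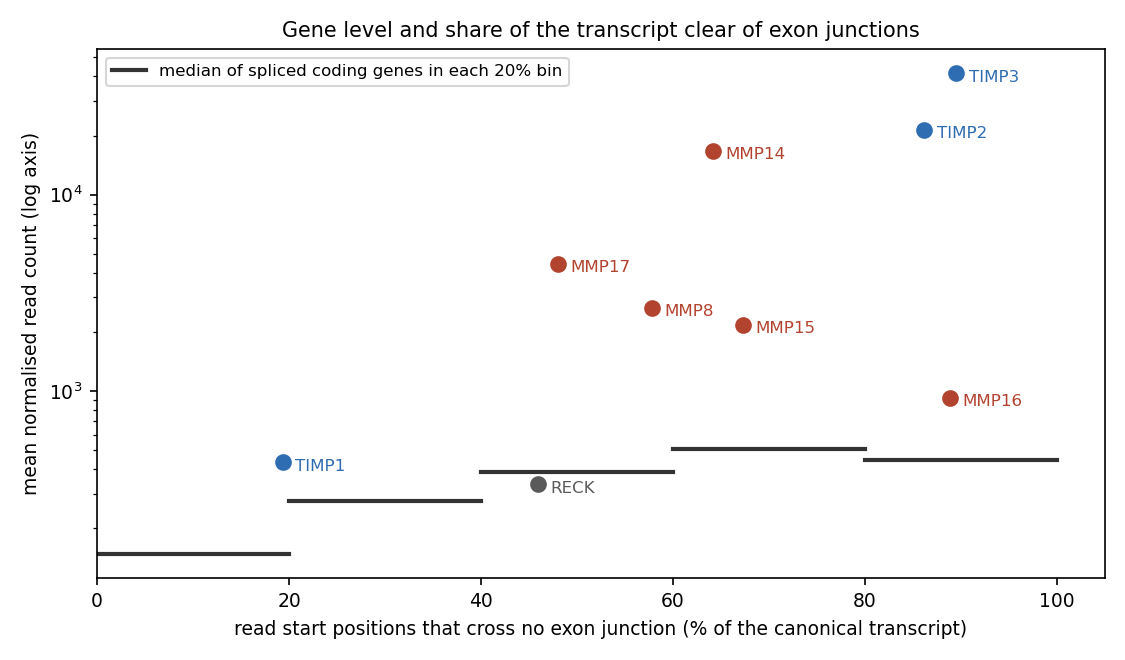
Mean normalised read count (log axis) of the 9 genes against the share of 150-base read start positions of the canonical transcript that cross no exon junction; black bars give the median of all spliced coding genes of the table in each 20% bin. TIMP1 lies at 19.4% with 434 normalised counts, above its bin's median of 148, and RECK lies just below its bin's median of 386.

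Some of these genes share their position with others. TIMP3 lies wholly inside SYN3 and TIMP1 wholly inside SYN1, in both cases on the opposite strand and without a shared exon base. SYN3 had a mean of 69.8 normalised counts against 41494 for TIMP3, and SYN1 had no row. A lncRNA on the opposite strand (ENSG00000267601, no row) overlaps 367 bases, or 10.0%, of the canonical TIMP2 transcript. The libraries kept the strand, but whether the counting used it is not stated in the sources.

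The MMP family as a whole was mostly without a row. For comparison, 11341 of the 19817 canonical coding transcripts that could be translated belonged to genes with a row. Of 23 MMP genes, 7 had one: the 5 listed genes, MMP24 (59.9 normalised counts), another membrane-type enzyme, and MMP1 (58.1), the interstitial collagenase. MMP9, the other gelatinase beside MMP2, had none. Of 4 TIMP genes, TIMP4 had none. MMP8 belongs to a cluster of 9 MMP genes that spans 435.2 kb of chromosome 11 (102391239 to 102826461), in which MMP8 and MMP1 had a row and the other 7 did not. The lower ends of these 2 genes lie 77.6 kb apart.

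**Figure D5:**
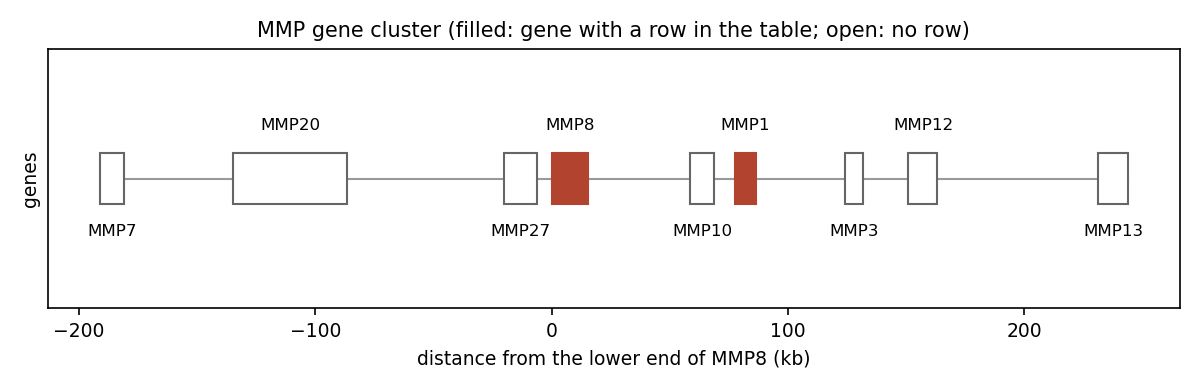
The 9 MMP genes of the chromosome 11 cluster drawn to scale by distance from the lower end of MMP8 (kb); filled boxes are genes with a row in the table, open boxes genes without one. MMP8 (2645 normalised counts) and MMP1 (58.1) are filled, and 7 genes are open.

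The promoters differed in base composition. RefSeq promoter sequences (GRCh38.p14, 250 bases before to 50 after the start) were held for 6 of the 10 genes (MMP8, MMP14, MMP15, TIMP1, TIMP3 and RECK) and not for MMP2, MMP16, MMP17 and TIMP2. 5 motifs were sought on both strands as plain letters: AP-1 (TGAGTCA), E-box (CACGTG), M-box (CATGTG), GC box (GGGCGG) and TATA box (TATAAA). No match overlapped another in these promoters. A GC box was present in 5 of the 6, in all but MMP8, against 71.3% of the 9806 promoters of genes in the table and 44.6% of all 27305. TIMP3 and MMP15 held 5 each, RECK 3, TIMP1 2 and MMP14 1. The MMP8 promoter was the least GC-rich of the 6 (40.7%, against a median of 58.3% over all promoters) and held the only TATAAA of the set, at -110 relative to the start. It also held the only M-box, which began 3 bases into the transcript on the opposite strand. TATAAA was found in 4.93% and the M-box in 6.42% of the promoters of genes in the table. None of the 6 held an AP-1 or E-box match, against 2.75% and 10.4%. The promoters of MMP8 and TIMP3 are shown as the one with no GC box and as one of the 2 with the most, with all matches in capitals.
MMP8, chr11:102724905-102725204, minus strand: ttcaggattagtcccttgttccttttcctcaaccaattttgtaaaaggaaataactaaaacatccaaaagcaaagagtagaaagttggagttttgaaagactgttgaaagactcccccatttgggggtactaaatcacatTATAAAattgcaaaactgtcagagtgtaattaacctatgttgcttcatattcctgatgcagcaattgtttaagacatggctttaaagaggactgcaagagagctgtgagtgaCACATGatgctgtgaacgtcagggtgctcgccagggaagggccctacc
TIMP3, chr22:32801455-32801754, plus strand: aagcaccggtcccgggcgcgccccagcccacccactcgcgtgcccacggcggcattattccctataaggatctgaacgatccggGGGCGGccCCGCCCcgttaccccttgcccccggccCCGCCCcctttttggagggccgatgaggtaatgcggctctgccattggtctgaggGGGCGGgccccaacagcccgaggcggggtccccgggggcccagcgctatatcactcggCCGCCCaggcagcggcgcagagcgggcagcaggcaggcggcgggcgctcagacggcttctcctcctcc

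In MMP8 the capitals mark TATAAA and, near the end, the reverse complement of the M-box. In TIMP3 they mark GC boxes, which begin at -166, -158, -131, -76 and -18 relative to the start. A match is a description of letters and does not show that a factor binds.

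The transfected siRNAs are shown because short RNAs can also pair with other transcripts through their seed, bases 2 to 8, which are in capitals. The study's source data name siDANCR1 for the RNA sequencing, while GEO's labels leave the siRNA unnamed.
siDANCR1: cCCUUCAGuuacaauagga
siDANCR1as: uCCUAUUGuaacugaaggg
siControl: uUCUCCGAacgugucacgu
siControlas: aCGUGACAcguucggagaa

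The letters of siDANCR1 occurred in 7 of 14 annotated DANCR transcripts and its partner strand siDANCR1as was their reverse complement, so siDANCR1as is the strand that can pair with DANCR. None of the 9 genes held a match to the siDANCR1as seed in its canonical 3′ UTR, against 5.57% of 11392 genes of the table. The seed of the partner strand siDANCR1 matched in 16.1% of these genes, among them MMP14 with 2 sites and MMP16 with 1. The seed of siControl matched in 2.08% of the genes, among them MMP14 and TIMP3, and that of siControlas in 3.03% and in none of the 9. The MMP14 sites are printed with the 7 matching bases in capitals, the first 2 for siDANCR1 and the last for siControl; all lie in exon 10, from 23315293, 23316087 and 23315865 of chromosome 14.
MMP14 site 1: ggactttgcctCTGAAGGccagtggcagc
MMP14 site 2: tgggggtgagcCTGAAGGccacagagaaa
MMP14 site 3: agtcaagttccTCGGAGAtctgcctctgc

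MMP14 thus held seed matches to a strand of both the DANCR and the control siRNA. Whether any of these sites affected its level was not tested. The 3′ UTR of TIMP1, at 98 bases, was the shortest of the 9 and held no match, and that of MMP16, at 9450 bases, the longest.

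Other genes of the same pathway were listed by role, and their means are given without length correction. The list of activators had a row for 5 of 7 genes, with a median mean of 447 normalised counts, from 57.5 (PCSK6, a convertase) to 4450 (FURIN). The surface partners and clearance receptors had one for 8 of 8, with a median of 2955, from 32.6 (LRP2) to 6627 (ITGB3, an integrin chain). The matrix substrates had a row for 7 of 11, from 182 (VCAN) to 39881 (FN1, fibronectin). The fibrillar collagen genes COL1A1, COL1A2, COL3A1 and COL5A1 had no row, which does not show that they were silent. The ADAM and ADAMTS proteinases, relatives that share the zinc-binding motif, had one for 7 of 10, from 29.7 (ADAM12) to 2914 (ADAM10, a sheddase of surface proteins). The AP-1 and ETS factors, known as activators of MMP genes, had one for 10 of 10, from 224 (ETS2) to 9125 (ETV5).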

How the data were processed

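Poly(A) RNA of SK-MEL-28 cells was sequenced by the authors in 3 control and 3 siDANCR libraries. The submitters' processing notes name Trim Galore 0.4.4, Bowtie 1.1.2, hg19 and DESeq2. The counting tool, annotation and treatment of junction reads were not given in the sources used here. The value used is the deposited signal of 1 column, the authors' mean of normalised counts over all 6 libraries. The other columns hold the authors' own comparison of the groups (fold changes, their errors, test statistics and p-values), and a second sheet holds a selection made on it. None of these were used, so no test was run, and no column gave values per library.

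Rows were matched to GENCODE 44 (lifted to GRCh37) by Ensembl identifier, and 13161 of 13449 were named. Coding and transcript lengths and junction-free positions of a 150-base read came from canonical transcripts. The zinc-binding motif, the cysteine switch and the furin match were sought in the translation of their coding sequences. A percentile is the share of genes with a lower mean. Members, lists and motifs were chosen with earlier results of these data known. All listed genes are named; of other lists, counts, the highest and lowest gene, genes without a row and genes needed for a statement are given. Alternatives were other lengths, minimum means of 50 and 100, protein-coding genes alone, and other motif windows and strands. The motif search was tested on simulated data. Python 3.11.15, pandas 2.3.3 and numpy 2.4.6 were used. The depth per library is unknown, so no interval could be given.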

Additional observations from a re-analysis of the deposited data

How the results depend on the processing

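The ratio of MMP14 to TIMP2 was 0.297 per coding kb, 0.783 with no length correction, 0.773 per transcript kb and 1.04 per junction-free position, a scale chosen after seeing the data. That of the listed membrane-type MMPs to the summed TIMPs was 0.139, 0.384, 0.453 and 0.586 in the same order. The counts of MMP genes (7) and TIMP genes (3) with a row were the same at a minimum mean of 50, and 5 and 3 at 100. Of the 6 promoters, the number with a GC box fell from 5 to 3 on the strand of the gene only, that with an M-box from 1 to 0 on that strand, and that with TATAAA from 1 to 0 in the 150 bases nearest the start; the AP-1 and E-box counts remained 0 in all 3 settings. The place of a gene among the 9 changed in 11 of 27 alternatives, and TIMP3 and MMP17 kept theirs in all 3 of their own. Leaving out genes below a mean of 50 lowered the percentile of TIMP1 from 58.0 to 52.5 and that of RECK from 51.0 to 44.5. No paired analysis was possible because the 6 libraries enter the table as a single mean, and for the same reason no replicate could be left out. The depth of each library is unknown.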
